A study of Mus musculus with 4 samples.

Results

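The genes described here are 9 regulators and markers of primitive and visceral endoderm, namely Gata4, Gata6, Pdgfra, Dab2, Foxa2, Afp, Ttr, Amn and Cubn. They were taken as every probe set whose single gene symbol in the platform annotation is 1 of these names, which gave 25 of the 34945 probe sets with 1 symbol, or 9 of 18193 genes. The arrays compared 2 groups of E14 cells, a line of mouse embryonic stem cells kept in serum and LIF. The first group received a short hairpin RNA against Npac (Npac RNAi, 2 arrays) and the second a control RNAi (2 arrays) whose hairpin the labels do not describe. Both groups went through puromycin selection for 3 days. The sequence of the Npac hairpin is not given in the sources used here. Nothing in the labels says whether replicate arrays came from separate cultures, so p-values measure only the spread between these arrays, which may be technical.

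Primitive endoderm is the inner epithelium of the late blastocyst that separates from the epiblast, the tissue embryonic stem cells resemble. FGF4 made by epiblast precursors acts through FGF receptors to keep GATA6 on and NANOG off, after which PDGFRA, SOX17, GATA4 and SOX7 mark the committed cells. Its descendants are parietal endoderm, which lays down a thick basement membrane, and visceral endoderm, which takes up and secretes proteins for the embryo and uses FOXA2, AFP, TTR and the cubilin and amnionless receptor complex.

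Glyr1, the current symbol of Npac and a reader of methylated histone H3, stood at 10.23 and 10.20 in Npac RNAi cells and at 11.30 and 11.32 in control RNAi cells on the log2 scale, so that 46.9% of the control level remained. The label of the cells was checked against 15 embryonic stem cell markers, of which limma called 11 lower and 0 higher (12 and 0 at an unadjusted p under 0.05). Over all genes, each at its probe set with the highest mean, 14.6% were called lower and 19.3% higher. Pou5f1, the Oct4 gene, stood at 11.91 and 11.88 in Npac RNAi cells, against 13.03 and 13.08 in control RNAi cells. Nanog stood at 12.70 and 12.71 in Npac RNAi cells, against 13.22 and 13.14 in control RNAi cells. Nanog and the other stem cell markers were thus still read on the Npac RNAi arrays, with a list median per array of 11.88 and 11.90 there and between 12.53 and 12.56 on the control arrays. The lower levels may come from fewer cells of a type or from less RNA per cell, which bulk RNA cannot tell apart. Replicate arrays stood closer to each other (Pearson's r 0.998 in both groups, across probe sets, which are not independent replicates) than to the arrays of the other group (0.987 to 0.989).

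Calls among the 9 endoderm genes went in both directions. Among the 9 genes, the transcription factor gene Foxa2 (1.59-fold) and the serum protein gene Afp (1.87-fold) were higher, while Amn (1.67-fold), the growth factor receptor gene Pdgfra (1.40-fold), Ttr (1.29-fold) and Cubn (1.23-fold) were lower, each read at the gene's probe set with the highest mean. Gata6, Gata4 and Dab2 did not pass the test at that probe set. Over all genes read in this way 19.3% were called higher and 14.6% lower. Counted by probe set, 5 of 25 were called higher and 6 lower at a limma adjusted p under 0.05. Over all 45037 probe sets tested, 14.2% were called higher and 14% lower, so a call in either direction was common on these arrays. No gene had calls in both directions. At least 1 probe set was called in 8 of the 9 genes, Gata6 being the exception, against 42.1% of all genes, and in 6 of the 7 genes with 2 or more probe sets, against 55% of all such genes. The values of both groups did not overlap in 18 of the 25 probe sets, against 69% of all probe sets. The median log2 difference of the 25 probe sets was -0.12, against -0.06 over all probe sets.

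**Figure D1:**
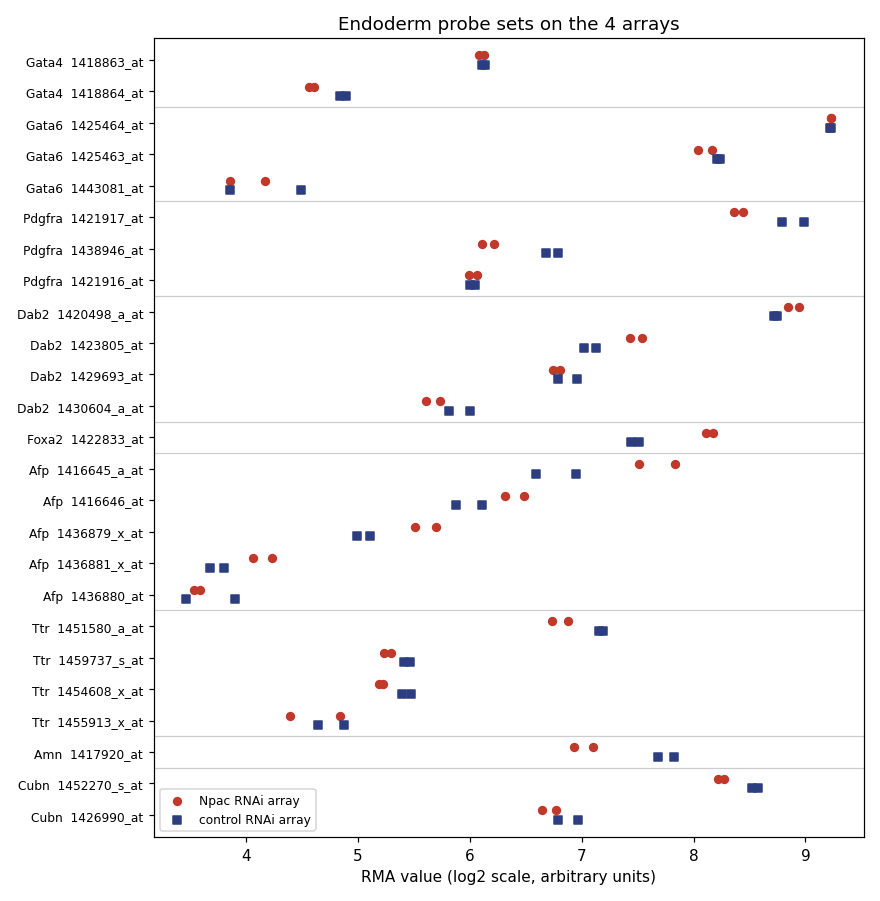
RMA values on the log2 scale (horizontal axis) of the 25 probe sets of the 9 genes (vertical axis, grouped by gene), with each Npac RNAi array as a circle and each control RNAi array as a square. For Foxa2 and for 4 of the 5 Afp probe sets the circles lie to the right of the squares, and for Amn and for 2 of the 3 Pdgfra probe sets they lie to the left.

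The regulators at the head of the lineage were read first. Gata6 encodes the zinc finger factor that starts the primitive endoderm programme. Its probe set 1425464_at read 9.23 on both Npac RNAi arrays, against 9.22 and 9.23 on the control arrays, and the groups overlapped. The log2 difference was 0.00 with a 95% interval from -0.14 to 0.14, or 0.904-fold to 1.11-fold (limma adjusted p = 1). Both Npac RNAi arrays held the same value at this probe set, so its standard error (SE, 0.0547) rested almost wholly on the variance that limma borrows from other probe sets. A further probe set, 1425463_at, read 8.16 and 8.04 in Npac RNAi cells and 8.21 and 8.24 in control RNAi cells, a difference of -0.12 (interval -0.30 to 0.06, limma adjusted p = 0.245). With quantile normalization the differences were -0.12 at 1425464_at and -0.25 at 1425463_at. With cyclic loess they were -0.05 and -0.16, and none of these was called. The last, 1443081_at, was dim and scattered, at 4.17 and 3.86 in Npac RNAi cells against 3.86 and 4.49 in control RNAi cells. Its replicates lay further apart than the group means did, so it gave no information on a change. Changes of Gata6 within these intervals were not detectable with 2 arrays a group.

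Gata4 acts downstream of Gata6 in primitive endoderm and later in heart. Probe set 1418863_at read 6.13 and 6.08 in Npac RNAi cells against 6.14 and 6.11 in control RNAi cells (difference -0.02, interval -0.17 to 0.13, limma adjusted p = 0.84). The dimmer probe set 1418864_at read 4.57 and 4.61 in Npac RNAi cells against 4.84 and 4.90 in control RNAi cells, and was called lower (-0.28, SE 0.0592, limma adjusted p = 0.0311). Its mean lay below the 25th percentile of all probe sets, and the call was lost when any 1 of the 4 arrays was left out. The 2 probe sets thus disagreed in call. The sign of 1418863_at was not settled, as its difference was 0.04 with quantile normalization and 0.08 with cyclic loess. Both Sox17 and Sox7, the SOX factors of the same programme, had no call at their brightest probe set. Sox17 stood at 8.87 and 8.97 in Npac RNAi cells against 8.75 and 8.60 in control RNAi cells (0.25, limma adjusted p = 0.0825), and Sox7 at 6.36 and 6.55 in Npac RNAi cells against 6.53 and 6.34 in control RNAi cells (0.02, limma adjusted p = 0.918). A dimmer Sox7 probe set, 1432495_at, was called lower (-0.37, limma adjusted p = 0.0143).

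Foxa2, a forkhead factor of visceral endoderm, node and definitive endoderm, is another regulator among the 9. It read 8.11 and 8.18 in Npac RNAi cells and 7.51 and 7.44 in control RNAi cells, with no overlap and a gap between groups several times the spread within them. The log2 difference was 0.66 (SE 0.0641, interval 0.50 to 0.83, limma adjusted p = 0.00552), and the gene was measured by 1 probe set. Its relative Foxa1, which can share binding sites with Foxa2, went the other way, at 7.58 and 7.68 in Npac RNAi cells against 8.41 and 8.22 in control RNAi cells (-0.69, SE 0.0883, limma adjusted p = 0.0101). The call on Foxa2 was lost without control array 2, and that on Foxa1 without either Npac array or without control array 1. Scaling all arrays on the poly-A spike-ins (RNAs of bacterial origin meant to be mixed into a sample ahead of labelling) left Foxa2 at 0.13 with no call.

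**Figure D2:**
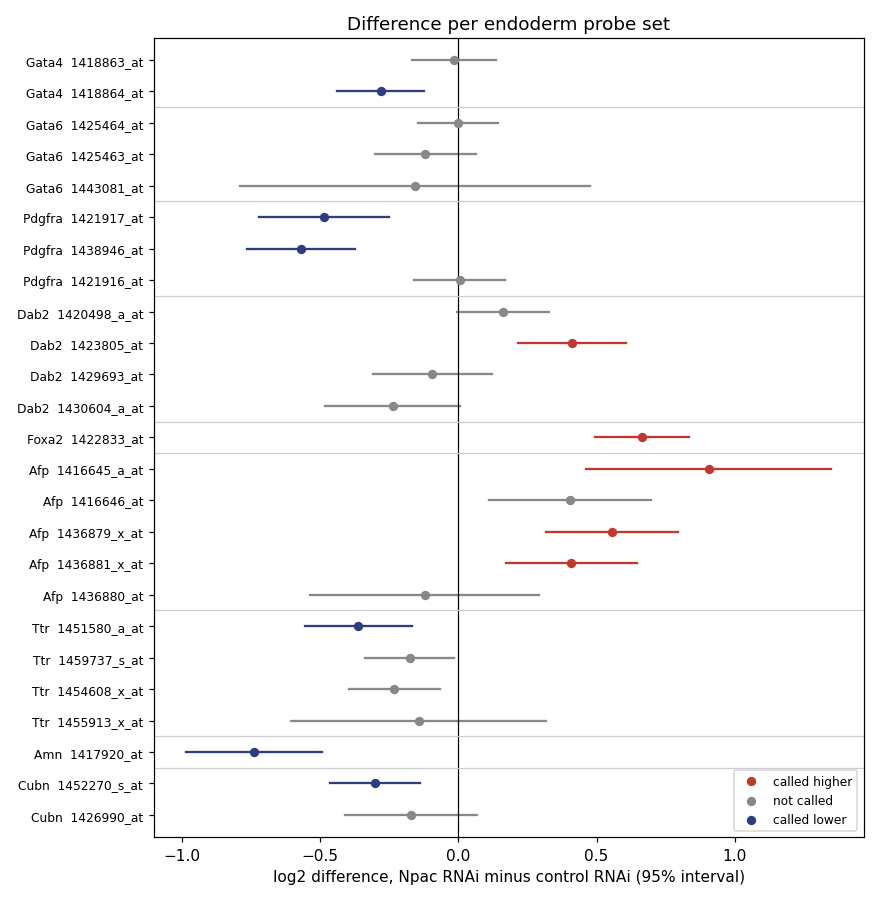
Log2 difference of Npac RNAi minus control RNAi (horizontal axis) for the 25 probe sets (vertical axis), as points with their unadjusted 95% intervals, coloured by whether limma called the probe set higher, lower or neither. Amn at -0.74 and Afp 1416645_a_at at 0.91 mark the ends of the range, and the brightest Gata6 probe set lies at 0.00.

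The receptor among the 9 is Pdgfra, which binds platelet-derived growth factors, helps primitive endoderm cells survive and also marks mesoderm and fibroblasts. Probe set 1421917_at read 8.44 and 8.36 in Npac RNAi cells against 8.98 and 8.79 in control RNAi cells (-0.49, SE 0.0892, limma adjusted p = 0.0226). Probe set 1438946_at gave a like value, with 6.22 and 6.11 in Npac RNAi cells against 6.79 and 6.68 in control RNAi cells (-0.57, SE 0.0735, limma adjusted p = 0.0102). At neither probe set did the groups overlap. The third, 1421916_at, read 6.06 and 5.99 in Npac RNAi cells against 6.00 and 6.05 in control RNAi cells, with an interval from -0.16 to 0.17 that does not reach the change read by the other 2. The probe sets of Pdgfra therefore disagreed, and where on the transcript each one lies is not given in the sources used here. The call on 1421917_at was lost without any 1 of the 4 arrays, and that on 1438946_at without Npac array 2 or either control array.

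Its ligands and its sister receptor rose. Pdgfa read 11.59 and 11.62 in Npac RNAi cells against 10.76 and 10.65 in control RNAi cells (0.90, SE 0.0668, limma adjusted p = 0.00331), and both of its probe sets were called higher. Pdgfc, another ligand of this receptor, read 8.88 and 8.91 in Npac RNAi cells against 7.81 and 7.69 in control RNAi cells (1.14, SE 0.0686, limma adjusted p = 0.00226). Pdgfrb, which marks fibroblasts and pericytes, rose by 0.79 (SE 0.0787, limma adjusted p = 0.00587) at 1 of its 2 probe sets. Of the same ligand family, Pdgfb rose by 1.32 (limma adjusted p = 0.00482) at 1 of its 2 probe sets, and Pdgfd (-0.17) had no call. Pdgfa, Pdgfc and Pdgfrb were thus higher, whereas 2 of the 3 Pdgfra probe sets were lower. Pdgfa, Pdgfb, Pdgfd and Pdgfrb fall outside the naming rule and were chosen after their values were seen.

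Genes of the FGF arm that precedes Gata6 were called in both directions. Fgf4, the epiblast ligand, fell to 10.07 and 10.04 in Npac RNAi cells, against 10.61 and 10.54 in control RNAi cells (-0.52, SE 0.0603, limma adjusted p = 0.00819). Fgfr2, a receptor enriched in primitive endoderm, read 9.34 and 9.43 in Npac RNAi cells against 8.29 and 8.29 in control RNAi cells (1.09, SE 0.0634, limma adjusted p = 0.00216). The dimmest Fgfr2 probe set had no call, and the mean over its probe sets was 0.58. Spry4, a feedback inhibitor induced by FGF signalling, fell by 0.95 (SE 0.0629, limma adjusted p = 0.00268). Of 18 measured FGF and PDGF genes 6 rose and 6 fell, against 19.3% higher and 14.6% lower over the 18193 genes, each read at its brightest probe set. The higher ones were Fgfr1, Fgfr2, Pdgfa, Pdgfb, Pdgfc and Pdgfrb, and the lower ones Fgf4, Sos1, Spry2, Spry4, Etv4 and Etv5. Fgfr1 (0.83, limma adjusted p = 0.00594) was called higher at all 3 of its probe sets and was chosen after its values were seen. The receptors Fgfr3 and Fgfr4 and the FGF response gene Dusp6 (-0.12, limma adjusted p = 0.189) had no call. The call on Fgf4 was lost without Npac array 2 or either control array.

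Dab2 encodes an endocytic adaptor that sorts apical receptors in visceral endoderm. Its 4 probe sets gave different answers. Probe set 1423805_at read 7.54 and 7.44 in Npac RNAi cells against 7.13 and 7.02 in control RNAi cells and was called higher (0.41, SE 0.0737, limma adjusted p = 0.0214). The brightest, 1420498_a_at, read 8.85 and 8.94 in Npac RNAi cells against 8.74 and 8.72 in control RNAi cells, without overlap but also without a call (0.16, interval -0.0048 to 0.33, limma adjusted p = 0.121). Probe set 1430604_a_at had the opposite sign, at 5.61 and 5.73 in Npac RNAi cells against 6.01 and 5.81 in control RNAi cells (-0.24, limma adjusted p = 0.122). The remaining one, 1429693_at, overlapped between groups (-0.09). Dab2 as a gene thus had no single direction, its call was lost without any 1 array, and the mean of its probe sets had none.

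Cubilin and amnionless form the receptor, called cubam, through which visceral endoderm, kidney and gut take up vitamin B12 complexes and lipoproteins. Amn, which anchors the complex in the membrane, read 6.93 and 7.10 in Npac RNAi cells against 7.83 and 7.69 in control RNAi cells. The groups lay apart, and the difference of -0.74 (SE 0.0927, interval -0.99 to -0.49, limma adjusted p = 0.00954) was the lowest among the 25 probe sets. Cubn, the ligand-binding part, read 8.22 and 8.28 in Npac RNAi cells against 8.52 and 8.58 in control RNAi cells at 1452270_s_at (-0.30, SE 0.0615, limma adjusted p = 0.0286). At its other probe set, 1426990_at, it read 6.64 and 6.77 in Npac RNAi cells against 6.97 and 6.79 in control RNAi cells, lower on both arrays but without a call (-0.17, limma adjusted p = 0.214). Amn was thus called lower at its only probe set and Cubn at 1 of its 2, an _s_at probe set, with the larger step in Amn. The call on Amn was lost without either control array, and that on Cubn without any 1 of the 4.

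Lrp2, or megalin, the partner receptor that works beside cubam at the apical surface, moved the other way. It read 10.85 and 10.92 in Npac RNAi cells against 9.63 and 9.65 in control RNAi cells (1.24, SE 0.0596, limma adjusted p = 0.00156), and a further probe set rose by 1.34 while the dimmest had no call (-0.01). Tcn2, the carrier of vitamin B12 in blood, was higher as well (0.63, SE 0.0548, limma adjusted p = 0.00446). Vldlr, a lipoprotein receptor, was called lower (-0.31, SE 0.0557, limma adjusted p = 0.0218), a call that did not hold for the mean of its probe sets (-0.17) or with any 1 array left out. Of 14 measured endocytic partners 7 were higher and 1 lower, against 19.3% and 14.6% of all genes. With 1 array left out 2 or 3 were higher and 0 lower by limma, and with spike-in scaling 1 was higher and 7 lower. The 7 on the deposited values were Lrp2, its chaperone Lrpap1, Tcn2, Numb, Myo6, Lrp1 and the clathrin heavy chain Cltc.

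The secreted products of visceral endoderm among the 9 are Afp and Ttr, and they went in opposite directions. Alpha-fetoprotein, the main serum protein of the yolk sac and fetal liver, is measured by 5 probe sets. Probe set 1416645_a_at read 7.52 and 7.83 in Npac RNAi cells against 6.95 and 6.59 in control RNAi cells (0.91, SE 0.167, limma adjusted p = 0.023). Probe set 1436879_x_at read 5.51 and 5.70 in Npac RNAi cells against 5.11 and 4.99 in control RNAi cells (0.55, SE 0.0903, limma adjusted p = 0.0172), and 1436881_x_at was called higher as well (0.41). At 1416646_at the groups did not overlap, but the test was missed (0.40, limma adjusted p = 0.0567). The dimmest Afp probe set, 1436880_at, overlapped between groups at values between 3.46 and 3.90. Replicates of the brightest one differed by more than those of most members, with an SD of 0.222 in Npac RNAi cells and 0.255 in control RNAi cells (n = 2 each). Its call was lost without any 1 of the 4 arrays, with a difference between 0.73 and 1.09. The mean over all 5 probe sets was 0.43 and was still called.

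Ttr, transthyretin, carries thyroid hormone and retinol-binding protein. Its brightest probe set, 1451580_a_at, read 6.88 and 6.74 in Npac RNAi cells against 7.15 and 7.19 in control RNAi cells (-0.36, SE 0.0735, limma adjusted p = 0.0285). The other 3 were lower on average too, from -0.23 to -0.14, and none was called. The mean over its 4 probe sets, -0.23, had no call, and that on 1451580_a_at was lost without any 1 array.

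Windows before the annotated gene starts are shown for 4 members that hold a word bound by a factor of this lineage, because the GATA and forkhead factors Gata4, Gata6 and Foxa2 are themselves among the 9. RefSeq starts on GRCm38.p6 were looked up by symbol. No window was kept for Gata4, Gata6 and Ttr. Windows of the 9 genes on 1 chromosome were left out of the search by choice. The shares over all windows kept that chromosome. An absent window thus does not mean that a symbol failed to match. The other 6 of the 9 genes had 9 windows of 250 bases. Each was searched on both strands for words of GATA factors (AGATAA or TGATAA, besides AGATAG or TGATAG) and of forkhead factors (TGTTTAC or TGTTTGC, besides TATTTAC or TATTTGC), and matches stand in capitals. No GATA match overlapped a forkhead match in these windows.
Afp, chr5:90490464-90490713, plus strand: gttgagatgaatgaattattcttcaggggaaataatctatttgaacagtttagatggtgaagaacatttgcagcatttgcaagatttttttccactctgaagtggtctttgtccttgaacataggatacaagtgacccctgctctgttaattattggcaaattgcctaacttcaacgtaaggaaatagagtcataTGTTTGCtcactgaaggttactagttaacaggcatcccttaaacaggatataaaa
Foxa2, chr2:148045465-148045714, minus strand: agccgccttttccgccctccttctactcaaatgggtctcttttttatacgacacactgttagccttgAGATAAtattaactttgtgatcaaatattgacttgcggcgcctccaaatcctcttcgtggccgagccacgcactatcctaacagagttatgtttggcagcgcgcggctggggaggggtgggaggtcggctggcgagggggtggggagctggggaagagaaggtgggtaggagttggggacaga
Dab2, chr15:6299539-6299788, plus strand: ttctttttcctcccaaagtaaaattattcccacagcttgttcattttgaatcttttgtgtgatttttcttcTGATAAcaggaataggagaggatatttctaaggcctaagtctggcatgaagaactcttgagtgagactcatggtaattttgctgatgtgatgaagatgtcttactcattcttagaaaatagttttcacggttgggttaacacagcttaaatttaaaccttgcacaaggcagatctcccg
Cubn, chr2:13491877-13492126, minus strand: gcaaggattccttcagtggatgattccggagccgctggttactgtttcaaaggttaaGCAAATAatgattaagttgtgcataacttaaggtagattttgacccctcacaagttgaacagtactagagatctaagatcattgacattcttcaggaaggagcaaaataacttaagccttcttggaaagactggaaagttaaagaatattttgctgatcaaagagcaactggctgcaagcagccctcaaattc
Afp holds a forkhead word 55 bases before its start and Cubn one 193 bases before its start, on the opposite strand. Foxa2 holds a GATA word at 1 of its 3 annotated starts and Dab2 at 1 of its 2. Over all 32851 windows of this length 26.5% hold a GATA word and 11.9% a forkhead word, against 2 of these 9 for each, so that neither is uncommon. These 9 windows leave out Gata4, Gata6 and Ttr, so the counts do not stand for all 9 genes. The windows of Amn and Pdgfra hold neither word. A match is a description of the letters and not of binding, and Afp, higher, and Cubn, lower, hold the same kind of word.

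Other endoderm genes put these values in context. Of 10 further endoderm transcription factors 1 was higher and 2 lower, which is close to the 19.3% and 14.6% of all genes. The higher one was Eomes (1.24), which also acts in trophoblast, and the lower ones were Foxa1 and Hhex, a homeobox factor of anterior visceral endoderm (8.41 and 8.55 in Npac RNAi cells against 9.02 and 9.02 in control RNAi cells). Hnf4a, the factor that drives many visceral endoderm transport genes, had no call at any of its 4 probe sets (-0.27 to -0.16) and was chosen after its values were seen. Among 19 secreted and lipid transport genes of visceral endoderm 6 were lower and 2 higher, with a median difference of -0.16, against -0.04 over all genes. Apoe (-0.55, SE 0.0559, limma adjusted p = 0.0062) and Apom (-0.49, SE 0.0625, limma adjusted p = 0.00992), both lipid carriers, fell, while the signalling protein gene Bmp2 (0.93, SE 0.0554, limma adjusted p = 0.00224) and the microvillus gene Vil1 (0.40, SE 0.0754, limma adjusted p = 0.0244) rose. With 1 array left out 1 was higher and 0 or 1 lower. The calls on Vil1 and Apom were lost without any 1 of the 4 arrays, that on Vil1 also with the replicate block (limma adjusted p = 0.0761), and that on Apoe without Npac array 2 or either control array. Of 8 genes of anterior visceral endoderm, a list that shares Hhex, Otx2 and Lhx1 with the factors, 1 was higher and 2 lower. Dkk1, a Wnt inhibitor, was the higher one (2.57), and Hhex and Sfrp5 (-0.38), another Wnt inhibitor, the lower ones.

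Most measured genes of parietal endoderm and its basement membrane were higher. Of 11, limma called 9 higher and 0 lower, against 19.3% and 14.6% of all genes. The counts were the same at an unadjusted p under 0.05, and the median difference was 0.63. This list is bright, with a median per array of 10.71 and 10.74 in Npac RNAi cells and 10.35 in control RNAi cells. With only probe sets at or above the median mean tested, 7111 were called higher and 5693 lower. Calls were thus more common among bright probe sets, which the shares over all genes do not take into account. Other bright lists share this limit. Type IV collagen chains led, with Col4a1 at 12.54 and 12.60 in Npac RNAi cells against 11.58 and 11.60 in control RNAi cells (0.98, SE 0.058, limma adjusted p = 0.00223) and Col4a2 2.30-fold higher. The others called were Lamb1, Lamc1, Sparc, Plat, Thbd, Fst and Pth1r. Lama1 (-0.06) and Nid1 (0.08) had no call. Many of them are also made by trophoblast and fibroblasts. With 1 array left out 4 or 5 were higher and 0 lower, and with spike-in scaling 4 were higher and 3 lower.

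**Figure D3:**
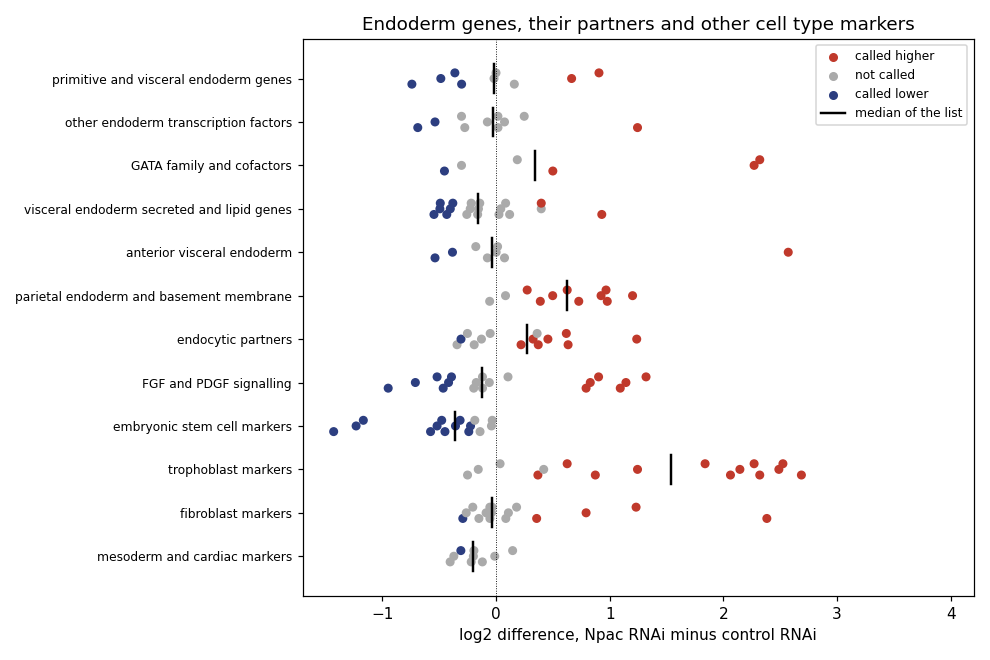
Log2 difference of Npac RNAi minus control RNAi (horizontal axis) for every measured gene of 12 lists (rows), each at its brightest probe set and coloured by limma call, with a bar at the list's median. The 9 endoderm genes lie on both sides of 0 with a median of -0.02, while the parietal endoderm list has its median at 0.63 and the trophoblast markers at 1.54.

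Markers of other cell types were read because several of the 9 genes are not restricted to endoderm. The GATA family differed within itself. Gata3, a trophoblast regulator, read 10.53 and 10.57 in Npac RNAi cells against 8.23 and 8.24 in control RNAi cells, and Gata2, which acts beside it and in blood, read 9.90 and 9.89 in Npac RNAi cells against 7.67 and 7.58 in control RNAi cells. Both differences (2.32 and 2.27) lie outside the intervals of the brighter Gata6 and Gata4 probe sets. Zfpm2, a cofactor of GATA4, was called lower (-0.45, limma adjusted p = 0.0141), a call lost without any 1 of the 4 arrays and with the replicate block (limma adjusted p = 0.0572). Of 6 further GATA factor and cofactor genes 3 were higher and 1 lower, against 19.3% and 14.6% of all genes. The higher ones were Gata2, Gata3 and the cofactor gene Zfpm1 (0.50, limma adjusted p = 0.00926), the last chosen after its values were seen. Of 16 trophoblast markers limma called 12 higher and 0 lower (13 and 1 at an unadjusted p under 0.05), and the median of the list per array was 9.59 and 9.60 in Npac RNAi cells and between 7.51 and 7.61 in control RNAi cells. Fibroblast markers gave 4 higher and 1 lower of 16, against 19.3% and 14.6% of all genes. The higher ones included Tagln (2.38) and Acta2 (1.23), whereas the matrix genes Col1a1, Col1a2, Col3a1, Dcn, Lum and Postn had no call. The median of that list per array lay between 5.18 and 5.23 in Npac RNAi cells and between 5.04 and 5.08 in control RNAi cells. Mesoderm and cardiac markers gave 0 higher and 1 lower of 9 by limma, namely Mixl1 (-0.31), and 0 and 4 at an unadjusted p under 0.05. The call on Mixl1 was lost without any 1 of the 4 arrays. The part of trophoblast or fibroblast expression in the values of Foxa2, Dab2, Pdgfra and the basement membrane genes was not tested.

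**Figure D4:**
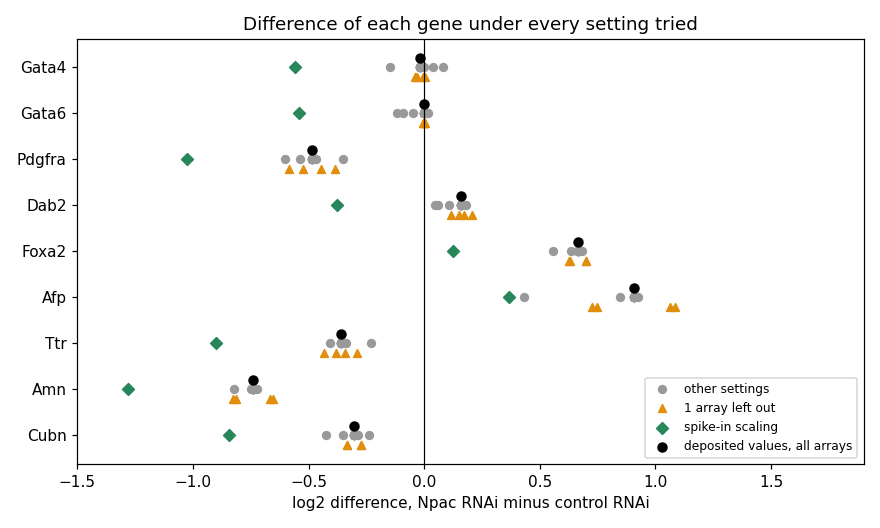
Log2 difference of Npac RNAi minus control RNAi (horizontal axis) of the 9 genes (rows) at their brightest probe set, on the deposited values (black), with 1 array left out (triangles), with scaling on the spike-in transcripts (diamonds) and under the other settings (grey). Amn, Pdgfra, Ttr and Cubn stay below 0 and Afp and Foxa2 above 0 in every setting drawn, while Dab2 crosses 0 with spike-in scaling.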

How the data were processed

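RNA of 4 samples was measured on single-channel Affymetrix arrays. The deposited values are 1 per probe set and array, and RMA, which corrects background, equalises arrays and summarises probes, is named without a version in the submitters' processing notes. The log2 scale of the deposited values was inferred from their range (2.78 to 15.05 without controls, array medians 6.41 to 6.44). RMA equalises arrays before it summarises probes, so the deposited values need not share 1 distribution. Equalising hides any global change, so each difference is relative to the other transcripts. The number of arrays limits the precision.

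Of 45101 probe sets, 64 manufacturer's controls were left out. Symbols came from the platform annotation, with Entrez identifiers looked up in RefSeq's gene table (GRCm38.p6) for current names, which matched 34741 of 34945 probe sets with 1 symbol. The other 932 had several symbols and 9160 none. Groups, from the sample titles, entered 1 linear model per probe set, with group as its term, in limma 3.58.1 under R 4.3.3 (functions lmFit, then eBayes), run on all 45037 probe sets, with Benjamini-Hochberg adjustment over them and a threshold of 0.05. Residual degrees of freedom were 2, and limma's prior contributed 2.56 more. Intervals are unadjusted 95% intervals from the moderated SE. The procedure was also run on simulated data with noise drawn from limma's own fitted prior. Such a run cannot show how well that prior fits these arrays. Other genes were read at their brightest probe set by the mean of the 4 arrays. The members and the 11 other lists were chosen with earlier results of these data known. Named from each list were up to 2 called genes in each direction with the smallest adjusted p, plus Glyr1, Pou5f1, Nanog, Sox17, Sox7, Gata2 and Gata3. Probe sets ending in _s_at or _x_at can also bind transcripts of other genes.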

Additional observations from a re-analysis of the deposited data

Results flagged for a closer look

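The 24 probe sets of the poly-A spike-ins, RNAs of bacterial origin meant to be mixed into a sample ahead of labelling, read 0.54 higher on average on the Npac RNAi arrays than on the control RNAi arrays on the log2 scale, and all 24 were higher there. Several probe sets read each spike-in RNA, so they do not count as independent, and they lie outside the gene comparison. A difference of this size is larger than those of Dab2, Ttr, Cubn and Pdgfra at their brightest probe sets. The values with arrays scaled on these RNAs stand with those of the other settings.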

How the results depend on the processing

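On the deposited values limma called 5 of the 25 endoderm probe sets higher and 6 lower, and 6378 and 6327 of all probe sets. These counts stayed within 1.5 times under the trend and robust options, quantile, median and cyclic loess normalization, and filters on dim probe sets. For the 25 probe sets they were 0 and 0 without moderation (3 and 7 at an unadjusted p under 0.05), 1 and 1 at a threshold of 0.01, 1 and 1 against a minimum change of 1.2-fold and 1 and 19 with spike-in scaling. They were 2 and 4 for 1 probe set per gene, 2 and 3 for the mean of a gene's probe sets, and 3 and 5 without probe sets ending in _s_at or _x_at, which leave fewer members to test. For all probe sets they were 1100 and 793 without moderation, 2565 and 1172 at 0.01, 2285 and 812 against 1.2-fold, 1506 and 38240 with spike-in scaling, 4020 and 3405 for 1 probe set per gene and 3381 and 3398 for the mean per gene. Leaving out 1 array, where a lone array is assumed to vary like the other group, gave 0 to 2 endoderm probe sets higher and 0 to 2 lower by limma, and 1592 to 2890 higher and 468 to 1347 lower of all. Without control array 2 no endoderm probe set was called (5 higher and 8 lower at an unadjusted p under 0.05).

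With the replicate number as a block 1 endoderm probe set was higher and 3 lower, and 3219 and 1668 of all. The labels do not say that the numbers pair the arrays. Deviations of same-numbered arrays from their group means had r = -0.14 across probe sets, which are not independent, so the numbers were not taken as pairs. A crossed block, chosen after seeing the data, gave 5 higher and 3 lower, and 5173 and 4327 of all.

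Spike-in scaling shifts every log2 difference by -0.54, so each one between 0 and 0.54 turns negative. Among the endoderm probe sets and the genes under the naming rule called with or without it, it turned Dab2 at 1420498_a_at (-0.38) and 1423805_at (-0.13), Pdgfra at 1421916_at (-0.54), Afp at 1436881_x_at (-0.13), Vil1 (-0.14), Sox17 (-0.29) and Sox7 (-0.52). Genes mentioned outside that rule and called higher on the deposited values turned as well, namely Lamb1, Lamc1, Pth1r, Lrpap1, Numb, Myo6, Cltc and Zfpm1 at their brightest probe sets. Afp at 1416646_at, called under neither, turned to -0.13. Glyr1 was called lower under each alternative that kept its probe set.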
